A study of Oryza sativa with 20 samples.

Results

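Unheated rice (Oryza sativa) shoots were followed here from 20 min to 1 h, the interval in which plants taken from a cool water bath stood in a warm growth chamber. The comparison sets the control group labelled C1h against the control group labelled C20m, 4 of the 20 RNA-seq libraries of the series. Wild-type plants 2 weeks old, grown in pots in a greenhouse, were turned upside down, and their shoots hung in water at 22 °C for 10 min. The C20m shoots were then kept at 30 °C for 10 min and the C1h shoots for 50 min, so that times count from the start of the bath. Heated shoots, used below for comparison, went through the same steps with water at 42 °C and were taken at 20 min (HR20m) and 1 h (HR1h). Every group of the series therefore carries inversion and immersion, and a shoot left upright and dry is not among the groups analysed here. Both series were also sampled at 10 min, 2 h and 10 h. The 10 min shoots came straight from the bath, and those of 2 h and 10 h had stayed at 30 °C since. Levels set against 10 min below therefore also differ in the move to 30 °C. Each library held 3 shoots and each group 2 libraries, but the deposited table has 1 value per group, so no SD or n of libraries stands beside any level.

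The members of the comparison are all gene IDs of the table. For each of the 37248 IDs the row with the highest mean FPKM over the 10 groups was used (FPKM, fragment counts scaled to transcript length and to all mapped fragments). The change is log2((C1h + 1)/(C20m + 1)), which understates the change of low values. An ID was compared where the mean of both groups was at least 1 FPKM, which left 21903. It is called a rise or a fall where this log2 ratio reached 1 in size, that is 2-fold. These calls rest on size alone: with 1 value a group no test of the difference could be made, and how far 2 libraries of a group differed is unknown. Neither the table nor the gene table at hand pairs the IDs with names (0 of 37248 matched), so levels are given by ID or by pattern, and the labelled tissue was not checked against leaf genes.

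As background, transcripts of a leaf respond to handling, bending, submergence and a change of temperature within minutes. Many early-response transcripts, which encode transcription factors and signalling proteins, are made in a burst and are short-lived, so that their level drops again soon after the stimulus ends. Transcripts driven by light and by the circadian clock shift over hours at the same time. An inverted, immersed and then warmed shoot is open to all of these, and a control series through the day carries them together. In shoots, which hold many cell types, fewer cells of a type and less RNA per cell cannot be told apart.

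The 20 min and 1 h controls were close in scale. Their summed FPKM over all rows was 850490 and 861006, and the median of the compared IDs was 8.75 FPKM at 20 min and 8.84 FPKM at 1 h. The controls at 2 h and 10 h summed to 698681 and 718459 FPKM, although their medians over the same IDs were 8.81 and 8.99 FPKM. Depth per library is unknown, and FPKM values carry no floor or interval.

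Most transcripts kept their level between 20 min and 1 h. Of the 21903 IDs, 17449, or 79.7%, moved by a log2 ratio of less than 0.5. Falls outnumbered rises. At 1 h 836 IDs were at least 2-fold lower (3.82% of those compared) and 565 were at least 2-fold higher (2.58%), together 6.4%. The tail of falls was also the longer one. Past 4-fold there were 216 falls and 62 rises, and past 10-fold 42 falls and 11 rises. Percentile 1 of the log2 ratio was -1.99 and percentile 99 was 1.37, around a median of 0.04. The balance leaned further toward falls with a larger pseudocount: with 5 FPKM added instead of 1 FPKM, 397 falls and 204 rises remained past 2-fold.

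**Figure D1:**
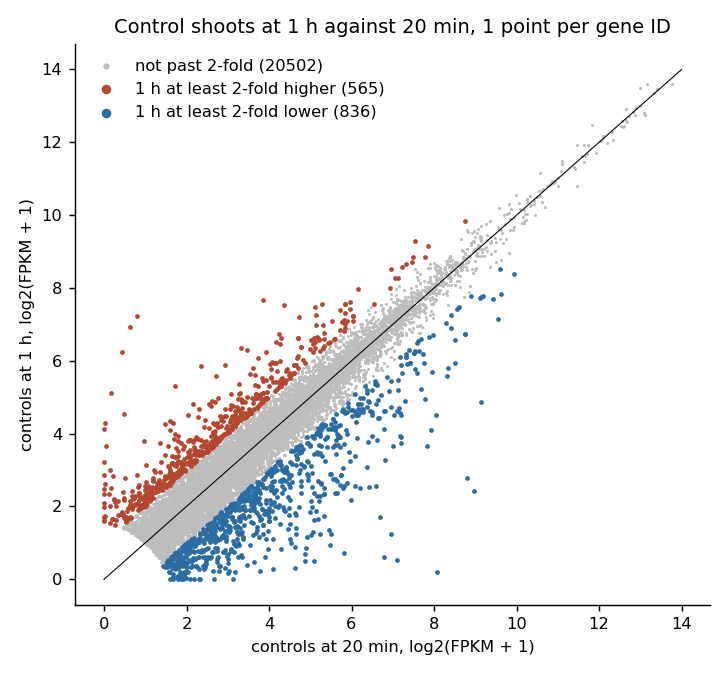
Each point is 1 gene ID, with its level in the 20 min controls on the x axis and in the 1 h controls on the y axis, both as log2(FPKM + 1); the line marks equal levels. The 836 falls reach farther from the line than the 565 rises, and the most abundant IDs at the upper right lie along it.

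The share of falls was of similar size at every level of expression. Between 1 and 5 FPKM, 4.49% of 7313 IDs fell and 2.48% rose. Between 5 and 20 FPKM the shares of 8666 IDs were 3.31% and 2.64%, and between 20 and 100 FPKM those of 4847 IDs were 3.49% and 2.66%. Above 100 FPKM, 52 of 1077 IDs fell (4.83%) and 26 rose (2.41%). The 100 most abundant IDs, all at a mean of at least 778.2 FPKM, had log2 ratios from -0.67 to 0.65, and none of them passed 2-fold.

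The falls together took 4.23% of summed FPKM at 20 min and 1.14% at 1 h, with each row counted once. The rises went from 0.877% to 2.48%. At the threshold itself, the fall just inside went from 2.76 to 0.88 FPKM and the ID just outside went from 130.33 to 64.74 FPKM (log2 ratio -0.998). The rise just inside went from 5.25 to 11.51 FPKM and the ID just outside from 87.65 to 176.17 FPKM (log2 ratio 0.999).

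Among all control intervals, that from 20 min to 1 h was neither the quietest nor the most changed by this measure. The SD of the log2 ratio over IDs was 0.566, against 0.475 from 10 to 20 min, 0.514 from 1 to 2 h and 0.767 from 2 to 10 h. The matching shares of IDs past 2-fold were 6.4%, 4.58%, 5.45% and 13.2%, each over the IDs that averaged at least 1 FPKM in the groups compared. The intervals differ in length, adjacent ones share a group, and these differences between intervals were not tested.

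The largest fall was that of OS09G0522500, a transcript present in the controls at 20 min and nearly gone by 1 h. Its control levels were 12.87 FPKM at 10 min, 267.37 FPKM at 20 min, 0.16 FPKM at 1 h, 0.35 FPKM at 2 h and 0 FPKM at 10 h. The single high value is that at 20 min, with the 10 min value far below it and the later ones at the bottom of the scale. From 20 min to 1 h the level went down 1670-fold without a pseudocount, a log2 ratio of -7.85 on the FPKM + 1 scale. In heated shoots the same ID stood at 16.74, 65.13, 165.76, 12.05 and 0.24 FPKM at the same 5 times. There the highest value was at 1 h, so that from 20 min to 1 h the heated level went up 2.55-fold while the control level went down.

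OS09G0522100 had the next largest fall. The controls were at 11.83 FPKM at 10 min, 135.42 FPKM at 20 min, 0.44 FPKM at both 1 h and 2 h, and 0.1 FPKM at 10 h, a 308-fold drop from 20 min to 1 h (log2 ratio -6.57). Heated shoots had 3.55, 33.57, 5.89, 0.27 and 0.18 FPKM. In both series the highest value was at 20 min, and the heated drop to 1 h was 5.7-fold. The heated log2 ratio for this interval was -2.33. A second row of this ID held at most 2.66 FPKM in any group.

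The largest rise was that of OS06G0647100, which switched from near absent to abundant. Control levels were 1.25 FPKM at 10 min, 0.74 FPKM at 20 min, 149.14 FPKM at 1 h, 121.49 FPKM at 2 h and 196.96 FPKM at 10 h. The early groups were all low and the later ones all high, with no value between. Heated shoots showed the same step, at 2.07, 1.94, 140.33, 114.49 and 336.27 FPKM. From 20 min to 1 h the rise was 202-fold in controls (log2 ratio 6.43) and 72.3-fold in heated shoots (log2 ratio 5.59).

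OS07G0142100 had the second largest rise, with a different course. Controls were at 154.86 FPKM at 10 min, 0.56 FPKM at 20 min, 120.13 FPKM at 1 h, 1.69 FPKM at 2 h and 157.48 FPKM at 10 h. High and low groups alternated, and the rise to 1 h (215-fold, log2 ratio 6.28) brought the level back to near that of 10 min. Heated shoots had 56.37, 0.79, 41.14, 53.25 and 45.8 FPKM, low at 20 min and not at 2 h. A second row of this ID was also low at 20 min and 2 h in controls, with 9.12, 0.06, 4.61, 0 and 15.42 FPKM in order of time.

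**Figure D2:**
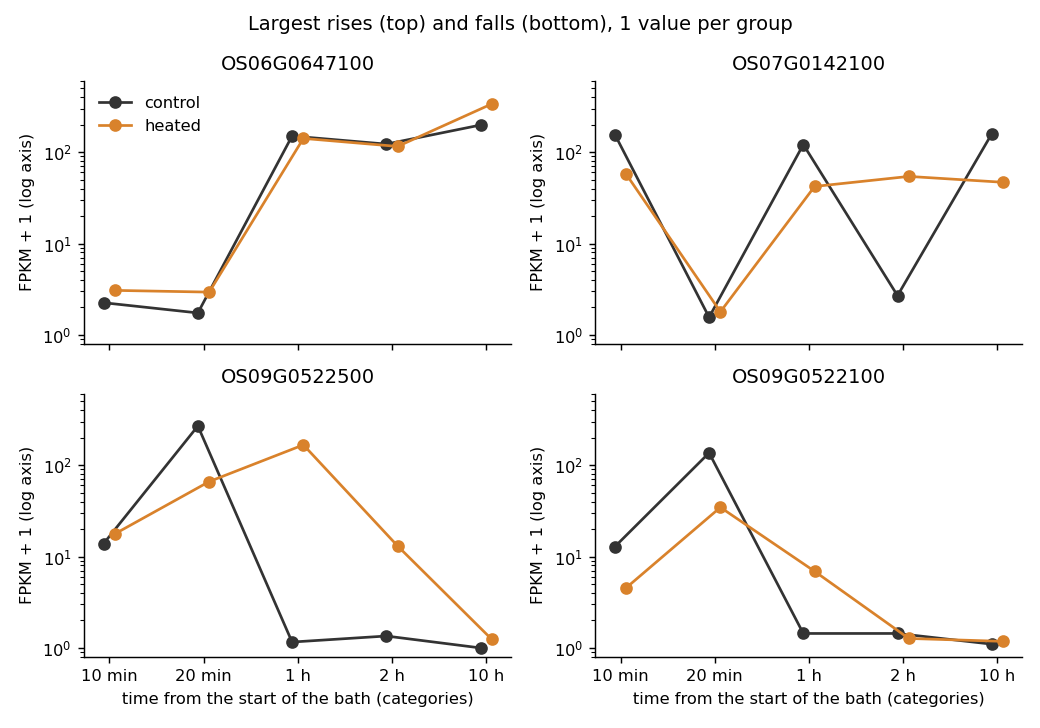
Levels of the 2 largest rises and the 2 largest falls in the 10 groups, as FPKM + 1 on a log axis against sampling time, with 1 deposited value per group and no error bars. OS06G0647100 steps up at 1 h in both series, OS07G0142100 alternates in controls, and the falls of OS09G0522500 and OS09G0522100 follow control values of 267.37 and 135.42 FPKM at 20 min.

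The falls as a group showed a course with its top at 20 min. Over the 836 IDs the median level in controls was 7.57 FPKM at 10 min, 11.46 FPKM at 20 min, 2.67 FPKM at 1 h, 4.96 FPKM at 2 h and 4.50 FPKM at 10 h. The 20 min and 1 h values chose these IDs, so a high 20 min and a low 1 h median are given by the choice. The other 3 control groups were not used to choose them. The 10 min level lay between the 20 min and 1 h levels in 457 IDs, above both in 261 and below both in 118. In the groups not used, 10 min was the highest of 10 min, 2 h and 10 h in 593 of the 836 IDs (70.9%), against 27.2% of all IDs compared.

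As a set, these IDs also stood below their 10 min level later in the controls, though most were within 2-fold of it. At 2 h 172 of the 836 were at least 2-fold below their 10 min level (20.6%) and 12 were at least 2-fold above it (1.44%), where over all 21903 IDs the shares were 3.36% and 2.24%. At 10 h 243 were at least 2-fold below 10 min (29.1%) and 19 above (2.27%), against 6.24% and 5.71% of all. The median log2 ratio to 10 min was -0.45 at 2 h and -0.55 at 10 h, against 0.02 and 0.05 over all IDs. None of these values uses the 20 min or 1 h controls. Set against those 2 groups, the 2 h level lay between them in 424 IDs, below both in 285 and above both in 127. The 20 min and 1 h values chose these IDs, so a 2 h level above that of 1 h is partly given by the choice. Whether part of the falls was a dip at 1 h was not tested.

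The 216 falls past 4-fold were picked for a larger drop, so their steeper change from 20 min to 1 h is given by the choice. Their median was 10.19 FPKM at 10 min, 24.1 FPKM at 20 min, 2.35 FPKM at 1 h, 4.28 FPKM at 2 h and 3.74 FPKM at 10 h in controls. At 2 h 88 of the 216 stood at least 2-fold below 10 min (40.7%, against 3.36% of all IDs). At 10 h 117 did (54.2%, against 6.24%). At least 2-fold above 10 min were 3 at 2 h (1.39%, against 2.24%) and 3 at 10 h (1.39%, against 5.71%).

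**Figure D3:**
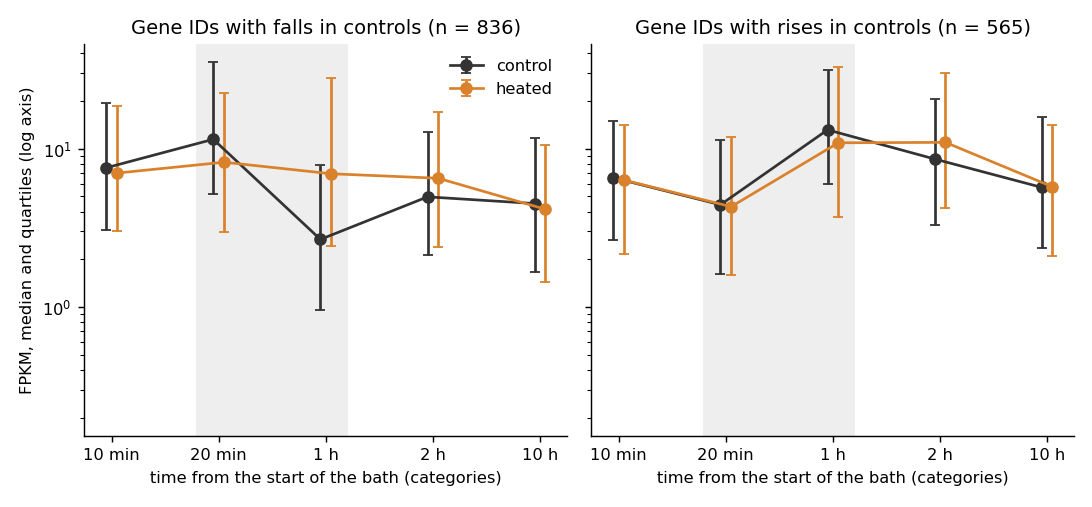
Medians and quartiles over gene IDs of the 836 falls (left) and the 565 rises (right), in FPKM on a log axis against sampling time, for control and heated groups; the shaded interval chose the IDs in controls. Among the falls the control median drops from 11.46 to 2.67 FPKM across the interval while the heated one goes from 8.21 to 6.94 FPKM; among the rises both go up.

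Heated shoots share no library with these controls, and over the same interval the control falls moved there in both directions. The heated median of the 836 IDs was 7.01 FPKM at 10 min, 8.21 FPKM at 20 min, 6.94 FPKM at 1 h, 6.50 FPKM at 2 h and 4.14 FPKM at 10 h. From 20 min to 1 h the median log2 ratio in heated shoots was -0.01, the same as over all IDs compared (-0.01). There 168 of the 836 fell at least 2-fold (20.1%) and 165 rose (19.7%), where over all IDs 4.47% fell and 13.0% rose. The 168 shared falls are 17.1% of the 980 falls of heated shoots, where 3.82% of all IDs compared fell in controls. The other 503 moved by less than 2-fold in heated shoots.

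The 165 IDs that fell in controls and rose in heated shoots had low medians at 10 min. The 20 min and 1 h values of both series chose them, as they chose the 168 that fell in both. The directions between those times are therefore given by the choice. In the 165, the control median went from 4.44 FPKM at 10 min to 18.8 and then 3.68 FPKM at 20 min and 1 h. The heated median was 5.51, 7.8 and 36.4 FPKM at these times and 10.41 FPKM at 2 h. In the 168 that fell in both series, the control median was higher at 10 min than at 20 min. Their control medians at 10 min, 20 min, 1 h and 2 h were 11.78, 9.08, 1.77 and 8.89 FPKM. Their heated median went from 13.78 FPKM at 20 min to 3.32 FPKM at 1 h and 8.06 FPKM at 2 h.

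Among the largest falls, the highest heated value mostly came within the first hour. Among the 216 falls past 4-fold it was 10 min in 24.1%, 20 min in 25.5% and 1 h in 37.5% of IDs, and 2 h or 10 h in 7.87% and 5.09%. Over all IDs compared the shares were 13.7%, 9.87%, 20.1%, 21.2% and 35.1%. From 1 h to 2 h in heated shoots 107 of the 216 fell at least 2-fold (49.5%) and 31 rose (14.4%), against 8.41% and 6.47% of all IDs. Of the 836 falls as a whole, 249 fell in this later heated interval (29.8%) and 128 rose (15.3%).

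**Figure D4:**
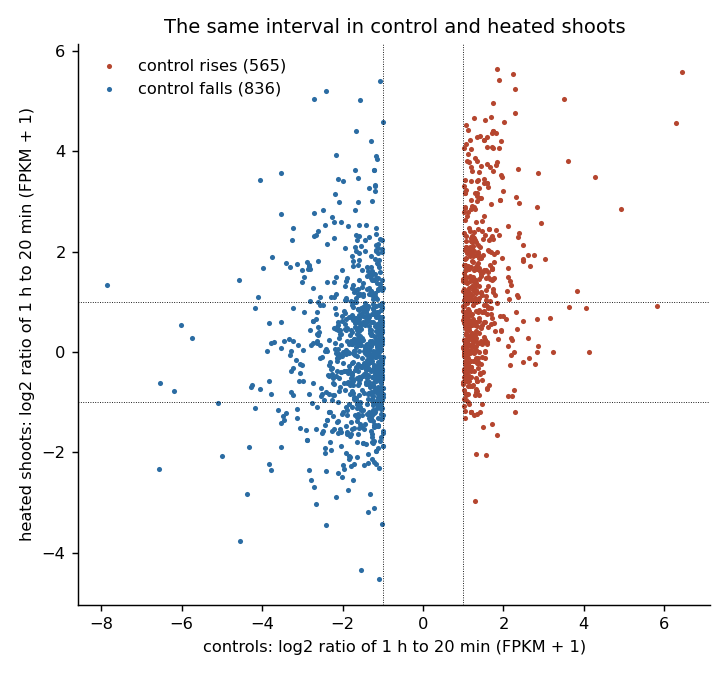
Log2 ratio of 1 h to 20 min on the FPKM + 1 scale in controls (x axis) and in heated shoots (y axis), 1 point per gene ID called in controls; dotted lines mark 2-fold. Of the 565 rises 285 lie above the upper line, while the 836 falls spread to both sides, 165 above it and 168 below the lower line.

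The rises were set beside the heated shoots in the same way. Of the 565 rises, 285 also rose at least 2-fold in heated shoots from 20 min to 1 h (50.4%, against 13.0% of all IDs compared), and 19 fell (3.36%, against 4.47%). The 285 are 10.0% of the 2841 rises of heated shoots, where 2.58% of all IDs compared rose in controls. The control median of the 285 went from 5.06 to 16 FPKM and the heated median from 3.8 to 26.26 FPKM, directions given by the choice. The 261 rises with less than a 2-fold change in heated shoots went from 3.93 to 11.57 FPKM in controls. They stood at 4.54 and 5.03 FPKM in heated shoots, again as chosen. For the falls the matching share was 20.1%, against a lower background of 4.47%, so the raw shares of rises and falls do not rank them, and their difference was not tested.

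The rises were chosen by a low 20 min and a high 1 h value, so only the other control groups add to that. Over the 565 IDs the control median was 6.55 FPKM at 10 min, 4.42 FPKM at 20 min, 13.15 FPKM at 1 h, 8.60 FPKM at 2 h and 5.69 FPKM at 10 h. At 2 h 113 of the 565 were at least 2-fold above their 10 min level, where 2.24% of all IDs were, and 41 were at least 2-fold below it (7.26%, against 3.36%). At 10 h 52 were above (9.2%, against 5.71%) and 93 below (16.5%, against 6.24%). Of the control groups not used in the choice, 2 h was the highest in 296 of the 565 (52.4%), against 30.5% of all. In 73 rises the 2 h level was at least 2-fold above both 10 min and 10 h (12.9%, against 1.21% of all IDs).

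A small set of rises followed the alternating course of OS07G0142100. In 23 of the 565 the 2 h controls were at least 2-fold below both the 10 min and the 10 h controls. That is 4.07% of the rises, where 2.75% of the 836 falls and 1.35% of all IDs had this 2 h low. Of these 23 rises, 16 were among the 62 rises past 4-fold (25.8% of the 62). Their median in controls was 17.13 FPKM at 10 min, 0.42 FPKM at 20 min, 14.26 FPKM at 1 h, 1.8 FPKM at 2 h and 15.8 FPKM at 10 h. At 20 min 14 of the 23 were below 1 FPKM. All 5 control groups entered the choice of these IDs. A 1 h level above 20 min, and a 2 h level below 10 min and 10 h, are given by it. The choice did not set the 10 min level against the 20 min level.

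The heated shoots, not used in that choice, were also low at 20 min in most of them. The heated medians of the 23 were 12.87 FPKM at 10 min, 1.95 FPKM at 20 min, 5.96 FPKM at 1 h, 3.53 FPKM at 2 h and 8.52 FPKM at 10 h. In 18 of the 23 the heated shoots at 20 min were at least 2-fold below those at 10 min, against 2.02% of all IDs compared. At 1 h 7 of the 23 were at least 2-fold above 20 min in heated shoots, against 13.0% of all IDs compared. None of the 23 shared its row with another gene ID. The pattern was noticed in OS07G0142100 and its kind before it was counted, and whether it follows time, plants or libraries was not tested.

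**Figure D5:**
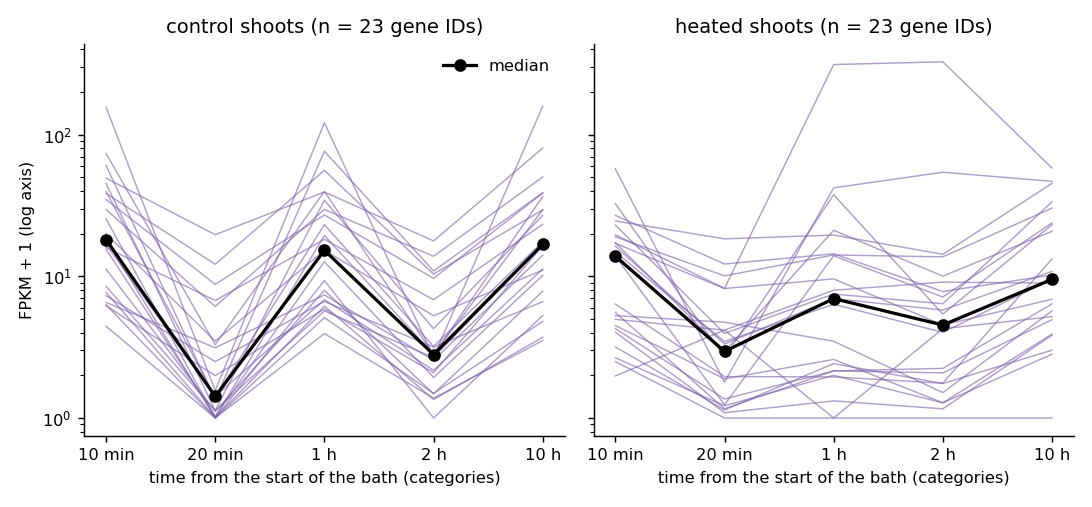
Levels of the 23 rises whose 2 h controls were at least 2-fold below both 10 min and 10 h, as FPKM + 1 on a log axis against sampling time, in control (left) and heated (right) shoots; thin lines are gene IDs and the thick line their median. In controls, whose values chose these IDs, the median goes 17.13, 0.42, 14.26, 1.8 and 15.8 FPKM. In heated shoots it drops from 12.87 to 1.95 FPKM between 10 and 20 min.

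The calls rested mainly on rows of their own. The 836 falls came from 810 distinct rows and the 565 rises from 542, since 49 falls (5.86%) and 44 rises (7.79%) sat on a row whose values another ID also carries, against 13.1% of all IDs compared. On several rows of the table stood 198 falls (23.7%) and 180 rises (31.9%), against 33.4% of all IDs. A value of 0 can be a failed estimate. Of the rises 10 were listed at 0 in the 20 min controls, and of the falls 11 were listed at 0 at 1 h. Leaving out shared rows and values of 0 left 776 falls and 511 rises.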

How the data were processed

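RNA of 20 rice shoot libraries was read on an Illumina instrument, per the labels' protocols. Build IRGSP-1.0 and the tools TopHat2, Cufflinks and cutadapt are named, without versions, in the submitters' processing notes. The authors deposited FPKM with 1 column per group, per the file headers, so replicates were already combined; how groups were scaled to each other and whether strand was used are not given in the sources used here. Depth is unknown. From these values the log2 ratio with a pseudocount of 1 FPKM was computed for the highest-mean row per gene ID (Python 3.11.15, pandas 2.3.3, numpy 2.4.6). A limma fit was planned only for values per library and was not run, so no p-value is given. The code for the calls was run on the deposited 20 min control levels set against a made-up second group. Changes were planted in 200 gene IDs, all of at least 20 FPKM. This run checks the code only, and not for low levels. How often calls on the deposited levels are wrong was not tested. The gene lists of the plan were not formed, as no ID could be paired with a name, and no sequences are shown. By rule, the named IDs are the 2 largest rises and falls with at least 5 FPKM in the higher group. The members and rules were chosen with earlier results of these data known. Alternatives covered pseudocount, filters, scaling, choice of row and threshold.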

Additional observations from a re-analysis of the deposited data

Results flagged for a closer look

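From 20 min to 1 h, 165 gene IDs were at least 2-fold lower in controls and at least 2-fold higher in heated shoots. They are 19.7% of the control falls, where 13.0% of all IDs compared rose in heated shoots. Another 19 IDs did the opposite, higher in controls and lower in heated shoots. These are 3.36% of the control rises, below the 4.47% of all IDs that fell in heated shoots. The count of 19 was 67 with a pseudocount of 0.1 FPKM, 2 with 5 FPKM, 12 at a mean of at least 5 FPKM and 1 at 3-fold. Both sets are given here because the same interval gave opposite directions in the unheated and the heated series. Each direction is that of 1 deposited value per group, and the difference was not tested. OS09G0522500 is among the 165, with log2 ratios of -7.85 in controls and 1.33 in heated shoots.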

How the results depend on the processing

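No paired analysis was possible because the table gives 1 value per group; for the same reason no replicate could be left out. The counts moved most with the pseudocount and the threshold. Rises numbered 894 with a pseudocount of 0.1 FPKM, 204 with 5 FPKM and 142 at 3-fold. Falls numbered 1207 with 0.1 FPKM, 397 with 5 FPKM, 386 at 3-fold and 508 where the mean of both groups had to reach 5 FPKM. Scaling the groups to equal median ratios gave 507 rises and 913 falls. For the pseudocounts of 0.1 and 5 FPKM and the 3-fold threshold in turn, rises shared with heated shoots numbered 446, 105 and 74. Falls shared with heated shoots were 292, 64 and 44 (89 at a mean of 5 FPKM), and control falls that rose in heated shoots were 267, 83 and 53. Falls below 10 min at 2 h were 262, 87 and 63, and at 10 h 386, 104 and 84. Rises above 10 min at 2 h were 219, 29 and 17, and 73 at a mean of 5 FPKM. The alternating rises numbered 42, 11 and 13, and 13 at a mean of 5 FPKM. The other alternatives moved each of these counts by less than 1.5 times, among them rows summed per gene ID and, chosen after seeing the data, the row of highest mean over the controls. The 4 named IDs kept their direction and stayed past 2-fold, or past 3-fold where that was the threshold, in each of the 10 alternatives. Depth limits are unknown without counts.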
